A study of Mus musculus with 24 samples.

Results

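The comparison described here set carotid arteries from 6 ovariectomized mice given 17β-estradiol (E2) against those from 6 ovariectomized mice given vehicle, 12 of the 24 libraries of the series. The members were taken from the sample titles, and every gene of the count tables was kept. All animals were female C57BL/6 mice without ovaries, so that E2 was added to a near absence of ovarian estrogen. The vehicle animals, titled OVX, carried placebo pellets; the remaining libraries came from mice given estetrol (E4, 6 libraries) or tamoxifen (6 libraries). The labels give an age of 9 weeks and a treatment of 3 weeks, while the text of the study describes a shorter treatment and gives fewer animals per group than the 6 libraries here. The E4 libraries are titled E4 but also carry the placebo tag. The arteries were whole and uninjured, so smooth muscle, endothelium, adventitia and attached tissue were measured together, and in such bulk RNA a change in the number of cells of a type and a change in RNA per cell cannot be told apart.

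The total count per library ranged from 38462554 to 64221401 in vehicle and from 42110445 to 48023077 in E2, with medians of 49408153 and 46808348. Levels are given below as CPM, counts scaled to a common library total with TMM factors. In a principal component analysis of the 12 libraries, the first component (47.8% of the variance) was set by 1 vehicle library, C5, at 160.43 against -40.922 to 25.376 for the other 11. The second component (14.4%) separated the groups, with vehicle from -35.23 to -11.716 and E2 from 21.26 to 43.368. Library C5 was low in sympathetic ganglion markers (mean log2 CPM 1.44 against 7.06 to 8.04 in the other vehicle libraries) and high in macrophage markers (5.29 against 4.61 to 4.82). Its part in the results was not tested beyond the fits without it.

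E2 acts mainly through estrogen receptors α (Esr1) and β (Esr2). On binding the hormone the receptor attaches to DNA, classically as a dimer at an inverted repeat of the half-site GGTCA, or indirectly through other factors, and recruits coregulators that raise or lower transcription. A fraction of the receptor acts at the cell membrane. In arteries, E2 is known for raising endothelial nitric oxide and for hastening repair of the endothelium. Genes such as Greb1 and Pgr, the latter encoding the progesterone receptor, are widely used readouts of the nuclear action.

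Treatment with E2 significantly regulated 302 of 24669 genes tested (1.22%), with 222 higher (0.9%) and 80 lower (0.324%) as compared with vehicle. A gene was called when the adjusted p of edgeR's quasi-likelihood test was below 0.05 and the log2 fold change was beyond 1 in either direction. Without the fold threshold, 956 genes passed (3.88%), 653 higher (2.65%) and 303 lower (1.23%), and 3915 genes (15.9%) had an unadjusted p below 0.05. The median log2 fold change of all genes was 0.0056. In 234 of the called genes, the 6 E2 values did not overlap the 6 vehicle values, against 703 of all genes tested (2.85%); E2 lay above vehicle in 182 of the 234, against 497 of all genes (2.01%), and below in 52, against 206 (0.835%). Among the genes called higher, 70 had a log2 fold change above 2, of which 52 lay outside the major urinary protein family described below. Among those called lower, 10 were below -2.

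**Figure D1:**
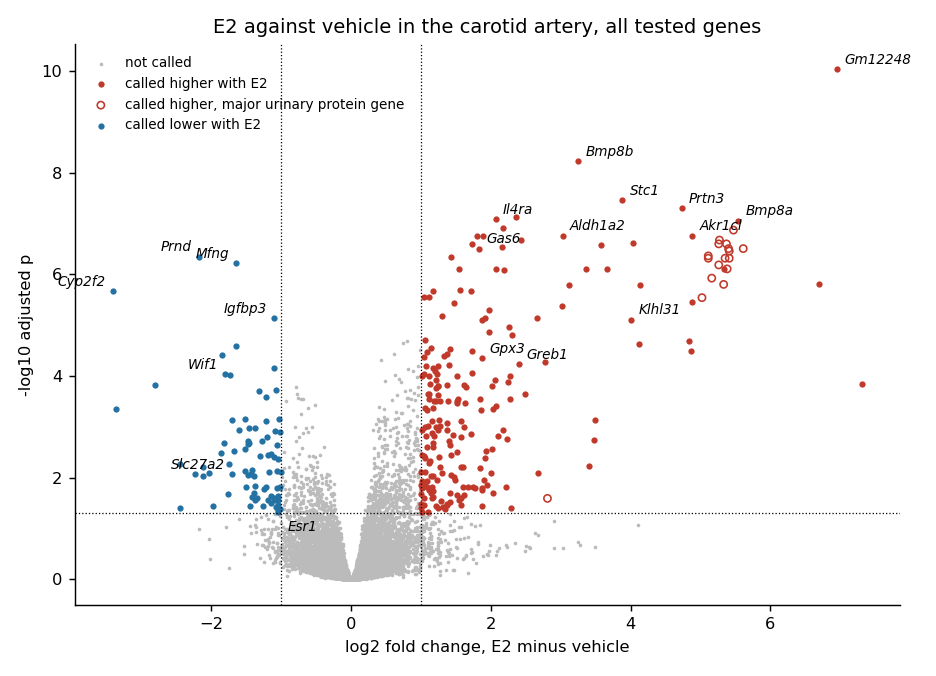
Each point is a gene tested, with the log2 fold change of E2 over vehicle on the x axis and the -log10 of the adjusted p on the y axis. Dotted lines mark a log2 fold change of 1 in either direction and an adjusted p of 0.05, and open red circles mark the major urinary protein genes. The 222 genes called higher reach farther from 0 than the 80 called lower.

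Among the receptors, Esr1 was abundant and did not pass the test. It was at 34.3, 43.6 and 62.7 CPM in the lowest, median and highest vehicle library and at 29.5, 36.7 and 41.8 CPM in E2 (log2 fold change -0.38, SE 0.13, edgeR adjusted p = 0.143), and the groups overlapped. Esr2 was at 0 to 0.132 CPM in vehicle and 0 to 0.167 CPM in E2, too low to be tested. Gper1, a membrane receptor that binds estrogens, was at 0.769 to 3.7 CPM in vehicle and 0.732 to 3.72 CPM in E2 (edgeR adjusted p = 0.831). Of 18 tested receptors and coregulators, 0 were called in edgeR or DESeq2, and 5 had an unadjusted p below 0.05 in edgeR, against 15.9% of all genes. Nrip1, a corepressor that is itself an estrogen target, had a log2 fold change of 0.52 (edgeR adjusted p = 0.00232), below the fold threshold.

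Of 51 tested genes of a list of estrogen targets described mostly in uterus and breast, 6 were called higher, against a background of 0.9% of all genes (Stc1, Greb1, Lif, C3, Pgr and Rerg) and 1 was called lower (Ihh). The median of the list, 0.14 on the log2 scale, stood near that of all genes. Greb1, a coactivator of the estrogen receptor (ENSMUSG00000036523, chromosome 12, 16670615 to 16800886, minus strand), was at 0.22 to 1.98 CPM in vehicle, median 1.59, and at 6.12 to 9.96 CPM in E2, median 7.12 (log2 fold change 2.41, SE 0.3, edgeR adjusted p = 5.93e-05). Pgr (ENSMUSG00000031870, chromosome 9, 8899833 to 8968611, plus strand) was at 2.9 to 5.19 CPM in vehicle, median 3.86, and at 6.77 to 11.3 CPM in E2, median 8.32 (log2 fold change 1.12, SE 0.15, edgeR adjusted p = 9.81e-05). In both genes every E2 library lay above every vehicle library. Lif, a cytokine of the interleukin 6 family, was at 1.87 to 3.18 CPM in vehicle and 5.09 to 7.73 CPM in E2 (log2 fold change 1.51). Rerg, a Ras-like growth inhibitor, was at 1.12 to 3.77 CPM and 4.25 to 5.58 CPM (log2 fold change 1.05). Ihh, the ligand Indian hedgehog, went the other way, from 0.693 to 1.46 CPM in vehicle and 0.304 to 0.763 CPM in E2 (log2 fold change -1.05, edgeR adjusted p = 0.0273), and its groups overlapped. A further group of targets passed the adjusted p with smaller changes, among them the growth regulator Myc (0.72) and the stress-response factor Xbp1 (0.4), both higher, and the chemokine Cxcl12 (-0.37), lower.

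The windows before the start sites of regulated genes are shown because the half-site of the receptor can be read in them. RefSeq windows of 250 bases (GRCm38.p6) were at hand for 148 of the 222 genes called higher and for 52 of the 80 called lower. The inverted repeat, GGTCA and its complement TGACC around any 3 bases, was found on either strand in 21 of 32851 windows (0.0639%) and in 0 of 162 windows of the genes called higher and 0 of 60 of those called lower. The half-site GGTCA alone was found in 37.0% of the windows of genes called higher, in 38.3% of those called lower and in 35.2% of all windows, so that its share in regulated genes stood near the background. A match is a string of letters and no measured binding, and these windows leave out distant enhancers. Below, the half-site, as GGTCA or its complement TGACC, is in capitals, each window reads 5′ to 3′ on the strand of the gene, and bases lying in any annotated exon were left off.
Greb1, first start (chr12:16800887-16801136, minus): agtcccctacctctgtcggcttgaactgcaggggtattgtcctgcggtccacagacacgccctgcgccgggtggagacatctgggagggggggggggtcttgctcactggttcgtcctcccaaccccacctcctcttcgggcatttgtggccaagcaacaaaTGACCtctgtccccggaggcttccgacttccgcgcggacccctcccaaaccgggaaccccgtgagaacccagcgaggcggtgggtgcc
Greb1, second start (chr12:16757242-16757489, minus): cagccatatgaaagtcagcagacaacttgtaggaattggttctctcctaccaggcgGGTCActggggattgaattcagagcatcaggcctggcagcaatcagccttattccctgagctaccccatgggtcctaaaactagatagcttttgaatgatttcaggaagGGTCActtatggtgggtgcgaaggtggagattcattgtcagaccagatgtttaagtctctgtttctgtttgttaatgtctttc
Gm12248 (chr11:58093135-58093379, minus): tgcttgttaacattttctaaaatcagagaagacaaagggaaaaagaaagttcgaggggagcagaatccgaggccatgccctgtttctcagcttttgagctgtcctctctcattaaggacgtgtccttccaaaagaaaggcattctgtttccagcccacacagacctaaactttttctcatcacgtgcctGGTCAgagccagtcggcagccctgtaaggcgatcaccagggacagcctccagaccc
Bmp8a (chr4:123343253-123343502, minus): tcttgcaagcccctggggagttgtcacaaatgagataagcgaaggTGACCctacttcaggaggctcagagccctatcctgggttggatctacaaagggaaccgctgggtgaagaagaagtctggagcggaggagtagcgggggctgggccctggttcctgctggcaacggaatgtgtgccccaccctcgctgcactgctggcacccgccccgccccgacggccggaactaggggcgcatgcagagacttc
Akr1cl (chr1:65032760-65033009, minus): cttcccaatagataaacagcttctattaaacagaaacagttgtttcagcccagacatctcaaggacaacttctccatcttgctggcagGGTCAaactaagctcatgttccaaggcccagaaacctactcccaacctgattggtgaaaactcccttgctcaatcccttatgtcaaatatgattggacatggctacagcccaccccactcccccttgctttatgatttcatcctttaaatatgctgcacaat

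The gene list with the highest median fold change was that of the major urinary proteins (Mup), small lipocalins that carry pheromones and are made chiefly by the liver under growth hormone and androgens. Of 22 Mup genes in the tables, all on chromosome 4, 18 were tested and 17 were called higher, against 0.9% of all genes, with log2 fold changes from 2.81 to 5.61. Their summed level was at 5.87, 15.6 and 21.7 CPM in the lowest, median and highest vehicle library and at 295.9, 518.6 and 870.1 CPM in E2, so that every E2 library stood well above every vehicle library. Within E2, the libraries C26, C27 and C29, of the upper series of animal numbers described below, were lowest, at 447.1, 419.1 and 295.9 CPM. The means were 14 ± 6.54 CPM (SD, n = 6) and 549.7 ± 206 CPM (SD, n = 6), a ratio of 39.3. The E4 libraries ranged from 52.0 to 199.4 CPM and the tamoxifen libraries from 6.22 to 30.6 CPM, the latter overlapping vehicle. Mup22, Mup11 and Mup18 made up 60.6% of the sum in E2: Mup22 rose from 3.18 ± 1.44 to 133.4 ± 50.9 CPM, Mup11 from 2.49 ± 1.16 to 102.0 ± 38.6 CPM and Mup18 from 2.55 ± 1.11 to 97.4 ± 35.5 CPM (SD, n = 6).

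**Figure D2:**
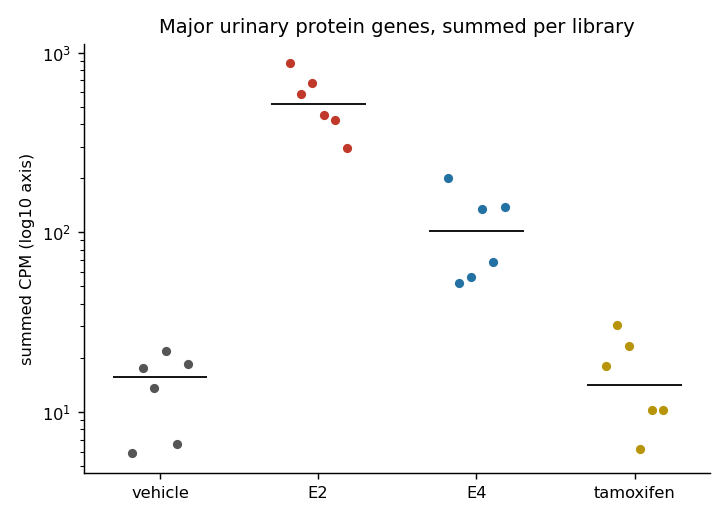
Summed CPM of the major urinary protein genes in each library (points, log axis) of the vehicle, E2, E4 and tamoxifen groups, with a line at the group median. E2 libraries lie from 295.9 to 870.1 CPM, and vehicle and tamoxifen libraries lie below 31 CPM.

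Many genes of this family are close copies, so reads are shared between them. The value of a single such gene is uncertain, while their sum is less affected, and the 17 calls are not 17 separate results. Of the 17 called genes, the share of 100-base transcript stretches also present in another Mup gene ran from 4.5% (Mup21) to 100%, with a median of 75.7%. Mup21, the most distinct of the called genes, was called on its own. Among Mup genes not called, the share was 0% for Mup4 and Mup6, 1.33% for Mup5, 2.23% for Mup3 and 38.8% for Mup20. The closeness of the called genes extended upstream. In 9 called genes other than Mup21, 42.4% to 91.6% of all 15-base stretches of the window before the start site were also in the window of Mup11, while Mup21 shared 5.61%. The GGTCA half-site was in 0 of the 11 windows of called Mup genes, and TTCNNNGAA, the letters bound by STAT5 downstream of growth hormone, was also in 0 of 11. Over all windows the shares were 35.2% and 7.02%. Most of the 11 windows are close copies and so no separate trials, and no conclusion was drawn from these absences. Capitals below mark the longest stretch that Mup10 and Mup21 each share with Mup11; in Mup11, they mark the stretch shared with Mup10.
Mup11 (chr4:60662412-60662645, minus): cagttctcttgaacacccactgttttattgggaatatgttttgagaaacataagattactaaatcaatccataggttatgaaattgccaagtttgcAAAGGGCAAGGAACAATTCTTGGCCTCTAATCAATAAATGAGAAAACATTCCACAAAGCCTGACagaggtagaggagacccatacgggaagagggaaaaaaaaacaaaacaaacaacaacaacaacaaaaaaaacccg
Mup10 (chr4:60582200-60582405, minus): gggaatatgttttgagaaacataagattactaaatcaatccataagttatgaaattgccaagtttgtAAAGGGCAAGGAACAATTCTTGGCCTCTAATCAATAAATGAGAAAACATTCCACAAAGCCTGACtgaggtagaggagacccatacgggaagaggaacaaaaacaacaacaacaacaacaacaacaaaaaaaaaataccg
Mup21 (chr4:62150864-62151091, minus): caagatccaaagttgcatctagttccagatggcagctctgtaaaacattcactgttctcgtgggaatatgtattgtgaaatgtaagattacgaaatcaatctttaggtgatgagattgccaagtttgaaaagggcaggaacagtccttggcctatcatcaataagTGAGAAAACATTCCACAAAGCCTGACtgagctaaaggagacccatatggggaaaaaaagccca

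The 9 liver transcripts Alb, Apoa1, Apob, Ttr, Serpina1a, Fgb, Cyp3a11, Apoh and Ahsg were examined in the same libraries, and 3 of them (Ttr, Apoh and Ahsg) were high enough to be tested. Alb, encoding serum albumin, was at 0 to 2.5 CPM in vehicle and at 0 to 0.0472 CPM in E2, Fgb, a fibrinogen chain, was at 0 to 0.276 CPM in vehicle and at 0 in E2, and the liver cytochrome Cyp3a11 was at 0 in both. Apoa1, Apob and Serpina1a were below 0.5 CPM in every vehicle and E2 library. Ttr, encoding transthyretin, had a log2 fold change of 0.27 (edgeR adjusted p = 0.878), and Apoh, an apolipoprotein, -0.05 (edgeR adjusted p = 0.981). Ahsg, encoding the liver protein fetuin A, was called higher, at a median of 1.74 CPM in vehicle and 3.32 CPM in E2, with separate groups (log2 fold change 1.06, edgeR adjusted p = 0.00405). Whether liver RNA had a part in the Mup values was not tested.

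Among protein-coding genes at a group mean of at least 1 CPM and outside the Mup family, the greatest increase was in Gm12248 (ENSMUSG00000086962, chromosome 11, 58063552 to 58093134, minus strand), a predicted gene without a known role. It had 0 to 2 counts in each vehicle library and 124 to 175 counts in each E2 library, which gave 0.0222 ± 0.0128 and 3.17 ± 0.405 CPM (SD, n = 6; log2 fold change 6.95, SE 0.3, edgeR adjusted p = 9.34e-11). Vehicle arteries were at the edge of detection for this gene, so the fold change is uncertain while the separation is not. Bmp8a, a ligand of the bone morphogenetic protein family (ENSMUSG00000032726, chromosome 4, 123312645 to 123343252, minus strand), had 0 to 6 counts in vehicle and 124 to 159 counts in E2 (log2 fold change 5.54, SE 0.39, edgeR adjusted p = 8.79e-08). Its neighbor Bmp8b (chromosome 4, 123105165 to 123132099, plus strand) went from 1.6 ± 0.265 to 15.2 ± 3.18 CPM (SD, n = 6; log2 fold change 3.25, SE 0.18, edgeR adjusted p = 5.95e-09). The Bmp8 genes are close copies, and reads could be shared between them.

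Akr1cl, an aldo-keto reductase, was at 0.679 to 1.13 CPM in vehicle and 11.9 to 53.5 CPM in E2 (log2 fold change 4.88, SE 0.37, edgeR adjusted p = 1.73e-07), the 3 lowest E2 values being those of C26, C27 and C29. Stc1, a secreted glycoprotein that regulates calcium and phosphate (ENSMUSG00000014813, chromosome 14, 69029238 to 69041804, plus strand), was at 3.04 to 6.72 CPM in vehicle and 48.4 to 104.4 CPM in E2 (log2 fold change 3.88, SE 0.25, edgeR adjusted p = 3.47e-08), a 14.7-fold difference. Klhl31, a kelch-like protein known from muscle, was at 0.11 to 1.39 CPM in vehicle and 6.59 to 12.4 CPM in E2 (log2 fold change 4.01). In each of these genes the groups were fully separated. Skeletal muscle markers, described below, were high in vehicle C2 and in E2 C6, C9 and C29. Klhl31 was at 1.39 CPM in that vehicle library, the highest of the group, at 8.48, 8.31 and 11.6 CPM in those E2 libraries and at 8.64, 12.4 and 6.59 CPM in E2 C8, C26 and C27, and the part of attached muscle in its values was not tested. Aldh1a2, the enzyme that makes retinoic acid, went from 2.82 ± 0.518 to 23.0 ± 6.98 CPM (SD, n = 6; log2 fold change 3.03, edgeR adjusted p = 1.73e-07). The remaining highest genes were the anoctamin Ano4 (log2 fold change 3.66), the GTPase-activating protein Arhgap40 (3.57), Prr32 (3.4; 4.3 without vehicle C5 and 2.83 without E2 C9), the serpin Serpinb9b (3.36), Gm18336 (3.02) and the xenobiotic cytochrome Cyp2b10 (2.77). Akr1cl overlaps exons of Gm8550 and Stc1 those of Gm41192, so their counts may include reads of the neighbor.

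**Figure D3:**
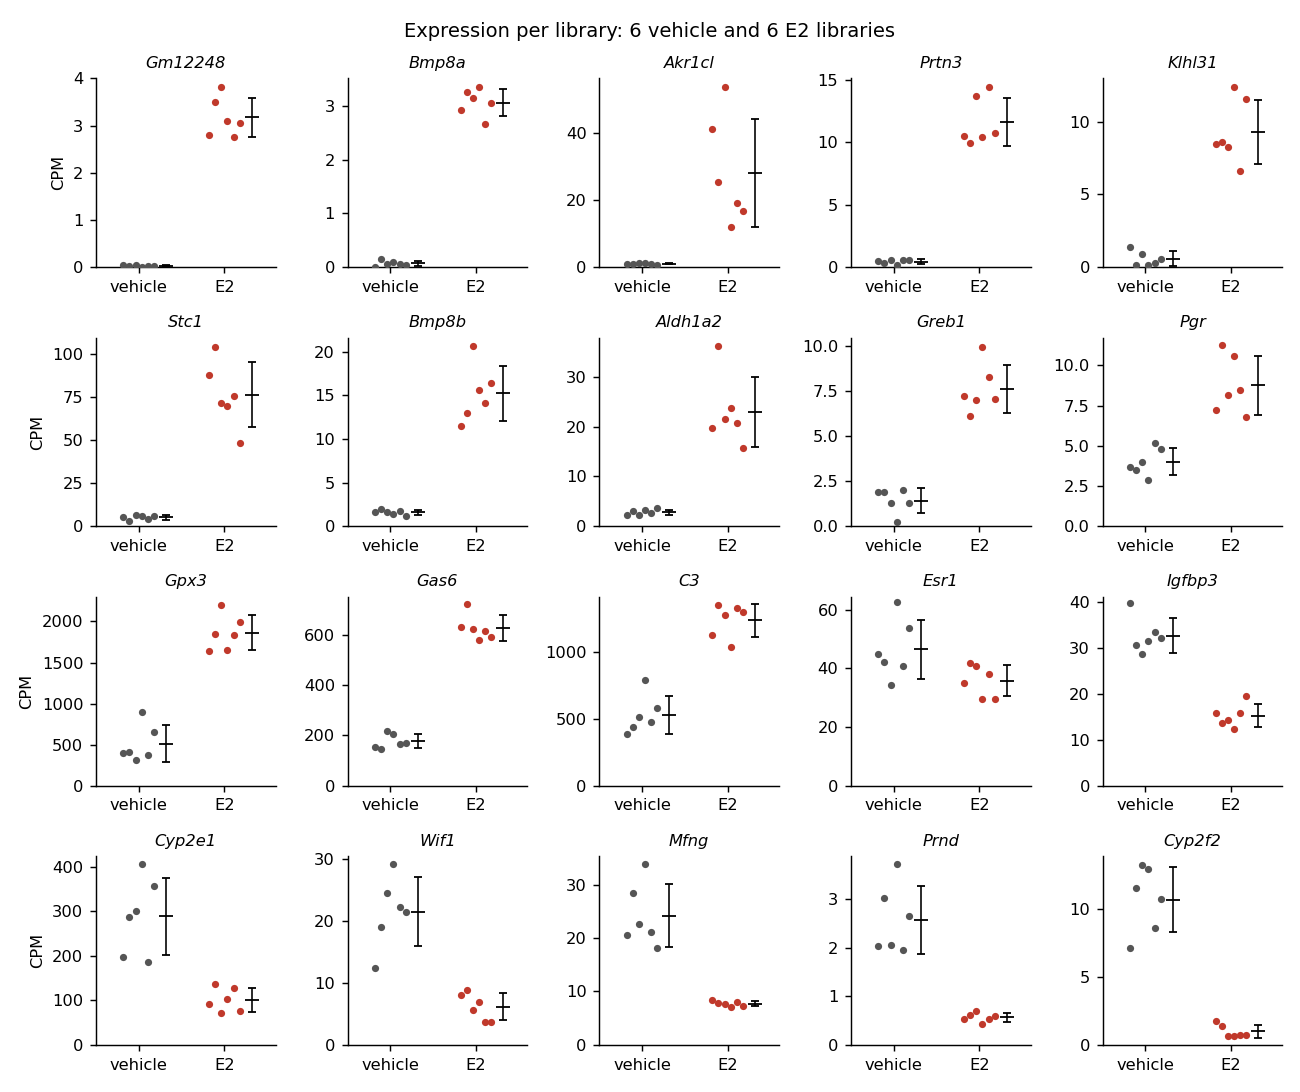
CPM of 20 genes in each of the 6 vehicle and 6 E2 libraries (points), with the mean and SD of each group (bars). The first 13 panels, from Gm12248 to C3, hold genes called higher, Esr1 was not called, and the last 6 panels hold genes called lower.

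Of the regulated genes, those at the highest mean level included Gpx3, a secreted glutathione peroxidase, which was at 316.2 to 900.0 CPM in vehicle and 1641.1 to 2201.1 CPM in E2 (log2 fold change 1.87, SE 0.23, edgeR adjusted p = 4.48e-05). Gas6, a ligand of the TAM receptor kinases, which act in the clearance of dying cells, was at 147.6 to 216.3 CPM in vehicle and 578.9 to 722.9 CPM in E2 (log2 fold change 1.83, SE 0.15, edgeR adjusted p = 3.12e-07). Hp, encoding the hemoglobin scavenger haptoglobin, was at 157.2 to 296.5 CPM and 500.6 to 863.8 CPM (log2 fold change 1.52). These 3 transcripts of secreted proteins were abundant in both groups and did not overlap between them. Other abundant genes called higher were Il4ra, a receptor chain for interleukins 4 and 13 (27.5 to 60.2 CPM in vehicle, 189.6 to 216.2 CPM in E2), and Plod2, which hydroxylates collagen lysines (50.3 to 66.8 CPM in vehicle, 148.8 to 284.7 CPM in E2).

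Of 37 tested genes of the BMP and TGF-beta pathway, 6 were called higher and 0 lower (background 0.9% and 0.324% of all genes), while 15 of the 37 had a positive fold change and the list median was -0.06. The ligands called were Bmp8a, Bmp8b, Gdf6 (0.375 to 1.41 CPM in vehicle, 2.21 to 3.35 CPM in E2) and Gdf15 (0.0375 to 0.519 and 0.779 to 1.65 CPM). Nog, encoding the secreted BMP antagonist noggin, was called as well, at 0.0878 to 0.636 CPM in vehicle and 0.709 to 2.07 CPM in E2 (log2 fold change 1.91, SE 0.37, edgeR adjusted p = 0.00405). Tgfbr2, a TGF-beta receptor, had a log2 fold change of 0.8 (edgeR adjusted p = 0.000879) and was not called. Within the list, ligands and an antagonist thus rose together.

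In the Wnt list, 1 of 32 tested genes was called higher and 1 lower, against the same background shares of 0.9% and 0.324%, which apply to each list below. Rspo2, a secreted enhancer of Wnt signaling, was at 0.537 to 1.63 CPM in vehicle and 2.14 to 5.72 CPM in E2 (log2 fold change 2.06, edgeR adjusted p = 0.000122). Wif1, a secreted Wnt inhibitor, was at 12.4 to 29.1 CPM in vehicle and 3.62 to 8.86 CPM in E2 (log2 fold change -1.8, SE 0.23, edgeR adjusted p = 9.2e-05). Both genes had separate groups. The secreted Wnt antagonist Sfrp4 had separate groups in the other direction from Wif1 (95.2 ± 26 CPM in vehicle, 176.7 ± 33.5 CPM in E2, SD, n = 6; log2 fold change 0.89, edgeR adjusted p = 0.0116), below the fold threshold, and Sfrp2 had -0.62 (edgeR adjusted p = 0.0176). Of 13 tested genes of the insulin-like growth factor (IGF) axis, 1 was called higher and 2 lower. Irs1, the adaptor downstream of the insulin and IGF receptors, was at 30.7 to 66.4 CPM and 67.6 to 110.5 CPM (log2 fold change 1.1). Igfbp3, a carrier protein of IGF, was at 28.7 to 39.7 CPM in vehicle and 12.3 to 19.6 CPM in E2 (log2 fold change -1.1, edgeR adjusted p = 7.35e-06), and the related Igfbp2 was at 0.722 to 2.5 CPM and 0.32 to 0.85 CPM (-1.51). Ghr, the growth hormone receptor, was called higher, at 126.1 to 184.3 CPM and 245.3 to 393.0 CPM (log2 fold change 1.02).

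Of 41 tested genes of angiogenesis, 1 was called higher (Stc1) and 2 were called lower. Among the latter, Apln, the peptide ligand apelin, had a median of 5.52 CPM in vehicle, with a lowest value of 5.15, and was at 2.27 to 3.73 CPM in E2 (log2 fold change -1.22, edgeR adjusted p = 0.000782). Vwf, the endothelial adhesion protein von Willebrand factor, was the only 1 of 17 tested endothelial markers to be called, at 68.9 to 112.9 CPM in vehicle and 179.0 to 280.2 CPM in E2 (log2 fold change 1.21, edgeR adjusted p = 0.000122). The median of the endothelial markers was -0.07.

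Complement genes act in tagging and clearing targets and in inflammation. Of 21 tested, 5 were called higher and 0 lower, and 13 passed the adjusted p and were higher, against 2.65% of all genes; the other 8 did not pass, and the median log2 fold change was 0.83. The summed level was 2698.4 to 4818.8 CPM in vehicle and 5469.0 to 7393.3 CPM in E2. C3, the central component, was at 386.1 to 791.9 CPM and 1041.8 to 1352.5 CPM (log2 fold change 1.22, SE 0.18, edgeR adjusted p = 0.000316). Cfd, the activating protease of the alternative pathway and also an adipocyte product, had a log2 fold change of 1.26, Masp1, a protease of the lectin pathway, 1.25, C6, a subunit of the membrane attack complex, 1.57, and C5ar1, the receptor of the C5a fragment, 1.19. The subunits of C1q, which macrophages make, had 0.92 (C1qa), 1.0 (C1qb) and 0.88 (C1qc) and were not called. In the fit without vehicle library C5, 10 complement genes were called higher. Split by the 2 series of animal numbers described below, 2 of them were called in each.

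Macrophage markers moved with these genes, and C1qa, C1qb and C1qc belong to both lists. Of 16 tested, 15 had a positive fold change and 13 passed the adjusted p, all higher, against 2.65% of all genes; 1 (Lyve1, log2 fold change 1.24) was called, 7 were called without vehicle library C5, and the median was 0.83. Their summed level was 718.4 to 1296.4 CPM in vehicle, the highest value being that of C5, and 1236.7 to 1820.0 CPM in E2. The pan-macrophage genes Adgre1 (log2 fold change 0.85), Csf1r (0.81) and Cd68 (0.9) passed the adjusted p, while Mrc1 (0.6, edgeR adjusted p = 0.0674), Mertk (-0.11) and Aif1 (0.18) did not. The part of macrophage content in the complement values was not tested. A fit with the mean macrophage marker level as a covariate, which removes the difference in those markers by its construction, called 378 genes in all, 164 higher and 214 lower, of which 133 were among the 302, and 0 of the complement genes. Siglec1, a sialic acid receptor of tissue macrophages, was at 7.41 to 13 CPM in vehicle and 26 to 50.7 CPM in E2 (log2 fold change 1.91, edgeR adjusted p = 7.35e-06), Mgl2, a macrophage lectin, was at 27.7 to 45.9 CPM and 77.9 to 135.4 CPM (1.71), and Retnla, a gene of alternatively activated macrophages, was at 64.3 to 192.6 CPM and 192.9 to 286.5 CPM (1.18).

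Among 45 tested chemokines and their receptors, 3 were called higher: Ccl8 (1.56 to 4.33 CPM in vehicle, 6.99 to 19.7 CPM in E2; log2 fold change 2.18), Ccl6 (1.39) and Ccl9 (1.24), all attractants of myeloid cells. Ccr2, the monocyte receptor for Ccl2, had a log2 fold change of 0.83 and passed the adjusted p without being called. Itgam, the integrin chain CD11b, was the only 1 of 17 tested genes of leukocyte adhesion to be called (log2 fold change 1.48, edgeR adjusted p = 3.7e-06), while the endothelial adhesion molecules Icam1 (0.57) and Vcam1 (0.51) passed the adjusted p alone. Of 11 tested genes of the leukotriene pathway, 5 passed the adjusted p, all higher (2.65% of all genes did so) and none called (2 were called higher without vehicle C5), including the 5-lipoxygenase Alox5 (0.86) and its partner Alox5ap (0.92). Macrophages also express this pathway. Of 19 tested prostanoid genes, 1 was called, the thromboxane synthase Tbxas1 (6.69 to 10.1 CPM in vehicle, 15.1 to 22.2 CPM in E2; log2 fold change 1.08). Among 11 class II antigen presentation genes 0 were called in edgeR or DESeq2 and 6 had an unadjusted p below 0.05 in edgeR (15.9% of all genes did), and among 37 interferon response genes 1 was called (Oas3, log2 fold change 1.29). With macrophage markers as a covariate, 0 genes of the chemokine, leukocyte adhesion, prostanoid and interferon lists were called, and the part of macrophage content in these values was not tested.

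Of 13 tested neutrophil markers, Prtn3 and Padi4 were called higher and the others were not. Prtn3, encoding the granule protease proteinase 3, was at 0.11 to 0.573 CPM in vehicle and 9.92 to 14.4 CPM in E2 (log2 fold change 4.73, SE 0.31, edgeR adjusted p = 5.01e-08). Its exons overlap those of Plppr3, a membrane phosphatase-like protein, which was called too (8.34 to 20.8 CPM in vehicle, 39.3 to 53.0 CPM in E2; log2 fold change 1.37). Padi4, an enzyme that turns arginine into citrulline in histones, had a log2 fold change of 2.66 (edgeR adjusted p = 7.09e-06). The calprotectin genes S100a8 (1.2, edgeR adjusted p = 0.379) and S100a9 (1.28, edgeR adjusted p = 0.339), which define neutrophils, did not pass the test. Without vehicle library C5, 4 of the 13 were called higher.

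Among 25 tested oxidant and antioxidant genes, Gpx3 was called, and 7 in all passed the adjusted p, every one higher, against 2.65% of all genes. They included Gclc (log2 fold change 0.98, edgeR adjusted p = 3.13e-05), the rate-limiting enzyme of glutathione synthesis, and the NADPH oxidase subunits Cybb (0.64), Ncf1 (0.8) and Ncf4 (0.93), which phagocytes express. Of 21 tested steroid and xenobiotic enzymes, 3 were called higher and 2 lower. The hydroxysteroid dehydrogenases Akr1c14 (11 to 17.6 CPM in vehicle, 23.4 to 59.1 CPM in E2; log2 fold change 1.42) and Akr1c18 (3.88 to 12 and 11.4 to 23.5 CPM; 1.28), the latter degrading progesterone, were higher. Cyp1a1 had a log2 fold change of 1.87 (edgeR adjusted p = 0.0362) with overlapping groups, and 1.24 without E2 C26, where it was not called.

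The strongest decrease was in Cyp2f2, a cytochrome P450 known from airway epithelium (ENSMUSG00000052974, chromosome 7, 27119909 to 27133660, plus strand). It was at 7.1, 11.1 and 13.2 CPM in the lowest, median and highest vehicle library and at 0.653 to 1.79 CPM in E2 (log2 fold change -3.41, SE 0.33, edgeR adjusted p = 2.15e-06), 10.6-fold higher in vehicle. The overlapping Gm15883 was also called lower (-3.36). Cyp2e1, the ethanol-inducible cytochrome that fat and liver express, had a log2 fold change of -1.51 (edgeR adjusted p = 0.000714). Prnd, encoding doppel, a relative of the prion protein found in endothelium, was at 1.96 to 3.71 CPM in vehicle and 0.421 to 0.696 CPM in E2 (log2 fold change -2.18, SE 0.18, edgeR adjusted p = 4.54e-07). The fatty acid transporter and acyl-CoA synthetase Slc27a2 had -1.7, and the carboxylesterase Ces1f went from 24.8 to 66.6 CPM in vehicle down to 9.79 to 16.1 CPM in E2 (-1.73). The groups of Ces1f were separate, whereas those of Slc27a2 and of the signaling adaptor Grb7 (-1.97, edgeR adjusted p = 0.0362; -2.59 without E2 C9) overlapped. Mfng, a glycosyltransferase that modifies Notch receptors, was at 18.2 to 33.9 CPM and 7.03 to 8.46 CPM (log2 fold change -1.64, edgeR adjusted p = 6.05e-07). Impdh1, an enzyme of guanine nucleotide synthesis, was at 67.7 to 198.3 CPM and 32.9 to 46.2 CPM (-1.65), and Tcap, the sarcomeric telethonin, at 15.1 to 34.0 CPM and 5.07 to 13.5 CPM (-1.6).

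In the matrix, changes were few and mixed. Of 28 tested collagen genes, 0 were called higher and 2 lower, with a list median of -0.24: Col6a6 (22 to 40.1 CPM in vehicle, 9.71 to 17.1 CPM in E2; log2 fold change -1.32, edgeR adjusted p = 0.000194) and Col6a5 (-1.08, edgeR adjusted p = 0.0279), which encode chains of type VI collagen. The fibril-binding proteoglycan Fmod was lower as well, at 23.7 to 46.5 CPM and 13.6 to 17.4 CPM (-1.22). Higher were Fbln2, an elastic fiber protein (96.7 to 152.1 CPM in vehicle, 239.2 to 334.9 CPM in E2; log2 fold change 1.2), the stromelysins Mmp3 (1.4) and Mmp10 (1.68), and the spondins Spon1 (16.6 to 32.8 CPM, 107.2 to 126.5 CPM; 2.18) and Spon2 (2.3). Of 22 tested genes of elastic fibers and crosslinking, Fbln2 was the only 1 called, and of 28 tested matrix proteases and inhibitors 2 were called. With macrophage markers as a covariate, 0 genes of these 2 lists and of the collagens were called higher. Called lower in that fit were 4 elastic fiber genes, 2 proteases or inhibitors and 4 collagens.

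Of 25 tested genes of nitric oxide and cGMP signaling, 0 were called and 0 passed the adjusted p in edgeR, while 6 had an unadjusted p below 0.05, against 15.9% of all genes, and 1 passed the adjusted p in DESeq2; Nos3, the endothelial nitric oxide synthase, had a log2 fold change of -0.11 (edgeR adjusted p = 0.825). Of 15 tested genes of the renin-angiotensin and endothelin systems, Agt, encoding angiotensinogen, was called higher (1.42, edgeR adjusted p = 0.0199). The oxytocin receptor Oxtr, a Gq-coupled receptor and a known estrogen target in uterus, was called higher, at 2.97 to 5.87 CPM in vehicle and 14 to 22.8 CPM in E2 (log2 fold change 2.19, edgeR adjusted p = 8.3e-07). Of 22 tested genes of cholesterol synthesis and transport, 0 were called in edgeR or DESeq2. Insig1, which restrains sterol synthesis, passed the adjusted p with separate groups (261.0 ± 52.3 CPM in vehicle, 161.5 ± 15 CPM in E2, SD, n = 6; log2 fold change -0.69, edgeR adjusted p = 0.00133). Neither tool called any of 18 tested glucocorticoid response genes (3 at an unadjusted p below 0.05 in edgeR), 24 immediate early genes (6) or 20 clock genes (8), against 15.9% of all genes.

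**Figure D4:**
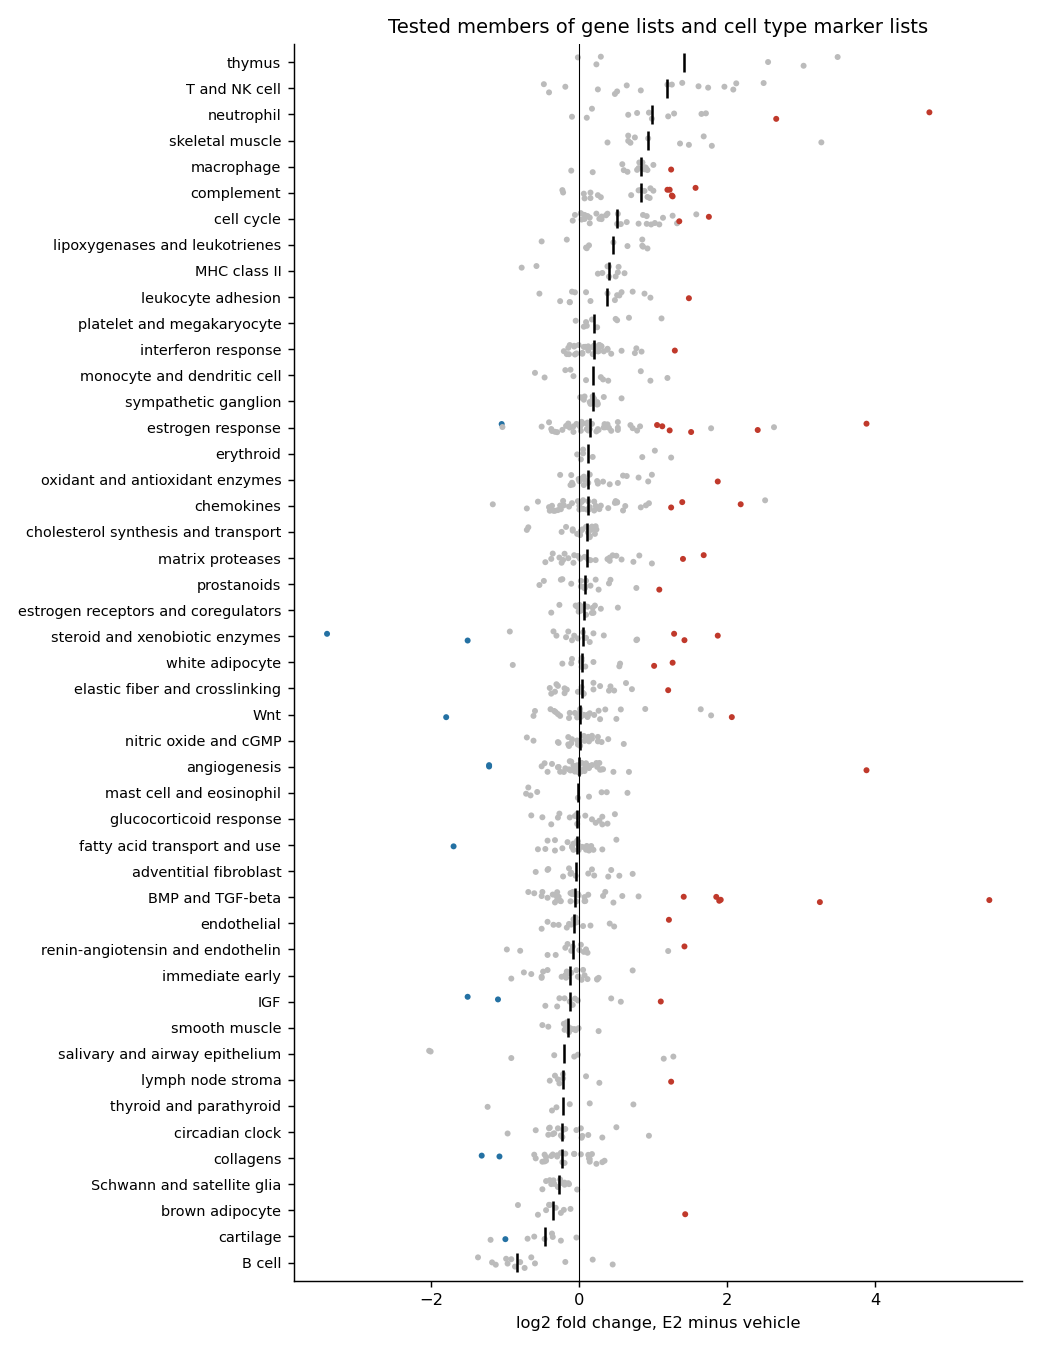
Log2 fold change of E2 over vehicle for every tested member of each gene list and marker list, with the major urinary proteins left out. Genes called higher are in red, genes called lower in blue and others in grey, with the list median as a black bar. Complement and macrophage genes both center at 0.83, while smooth muscle and nitric oxide genes center near 0.

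Of the markers of the artery wall, 0 of 15 tested smooth muscle markers (median log2 fold change -0.15) and 0 of 15 tested adventitial fibroblast markers (-0.05) were called in edgeR or DESeq2, and 2 and 7 had an unadjusted p below 0.05 in edgeR, against 15.9% of all genes. Attached tissue varied between libraries. Skeletal muscle markers were high in vehicle C2 (mean log2 CPM 3.3) and in E2 C6, C9 and C29 (3.11, 3.92 and 3.21), and at -1.15 to 0.01 in the other vehicle libraries. White adipocyte markers overlapped between groups, with sums of 6306.1 to 16068.0 CPM in vehicle and 9100.2 to 14497.5 CPM in E2 (median log2 fold change 0.03, 2 of 14 called higher). Thymus markers stood at 5.07 in E2 C9, against a highest value of 2.65 in the other 11 libraries. The median of the T and NK cell markers was 1.19 with C9 and -0.68 without it. C9 bore on the cell cycle list as well. Of 33 tested proliferation genes 31 had a positive fold change and 2 were called, the spindle motor Kif11 (log2 fold change 1.35) and the mitotic cyclin Ccnb1 (1.75). Kif11 was at 11.2 CPM in C9 and 1.7 to 3.52 CPM in the other E2 libraries. Without C9 the median was 0.19 in place of 0.51, Kif11 had a log2 fold change of 0.72 and was not called, and Ccnb1 had 1.15. Leaving out any 1 library gave 1 to 4 called genes of the list.

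The animal numbers fell in 2 series, up to 20 and from 24 upward, which the labels do not call batches. Vehicle had 4 and 2 libraries in them, and E2 had 3 and 3. Fitted apart, the lower series gave 141 called genes and the upper 171. In a fit of the difference in E2 effect between the series, 0 genes passed the adjusted p in edgeR and 862 passed an unadjusted p below 0.05. Of these 862, 11 were among the genes called over all libraries. With 2 vehicle libraries in the upper series, this fit could miss differences. Of 17 tested Mup genes without Mup22, 16 were called in all libraries and 15 in each series, and the BMP and TGF-beta list 3 in each.

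The E2 values were last set beside those of the other ligands, which were given at other doses. Of 76 named genes tested, 50 differed between E2 and E4 at an adjusted p below 0.05 (background 10.9% of all genes tested), and 59 differed between E2 and tamoxifen (background 6.4%); the named genes were chosen with the E2 libraries, so these shares are descriptive. The count against E4 became 31 in the lower series of animal numbers, 0 in the upper, 24 with B cell markers as a covariate and 0 with macrophage markers; that against tamoxifen became 34 in the upper series. Of the 55 named genes called higher, 44 were higher in E2 than in E4 and 48 higher than in tamoxifen. Gm12248 was at 0.913 to 2.02 CPM in E4 and 0 to 0.149 CPM in tamoxifen, below every E2 library (E2 over E4 log2 fold change 1.35, SE 0.19, edgeR adjusted p = 0.000564). Stc1 was at 14.7 to 34.0 CPM in E4 and 9.28 to 16.5 CPM in tamoxifen (E2 over E4 1.75, E2 over tamoxifen 2.62), an order of E2, E4, tamoxifen and vehicle by the medians. Padi4 and Itgam were higher in E2 than in E4 by 2.56 and 1.26 on the log2 scale, and for E4 against vehicle their adjusted p values in edgeR were 0.831 and 0.291.

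Vwf took another course. It was at 165.6 to 293.7 CPM in E4, and E2 and E4 differed by -0.06 on the log2 scale (SE 0.16, edgeR adjusted p = 0.829). Among the 19 named genes called lower, 4 were lower in E2 than in E4 and 11 lower than in tamoxifen. Slc27a2 was lower in E2 than in E4 by a log2 fold change of -1.69 (edgeR adjusted p = 0.00739), while Prnd was higher in E2 than in E4 by 1.08 (edgeR adjusted p = 0.00448), since E4 arteries held 0.162 to 0.302 CPM. Esr1 was at 22 to 30.7 CPM in E4 and higher in E2 by 0.49 (edgeR adjusted p = 0.0292). Pgr was at 4.66 to 9.88 CPM in tamoxifen, and its difference from E2 did not pass the test (log2 fold change 0.4, SE 0.17, edgeR adjusted p = 0.162).

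**Figure D5:**
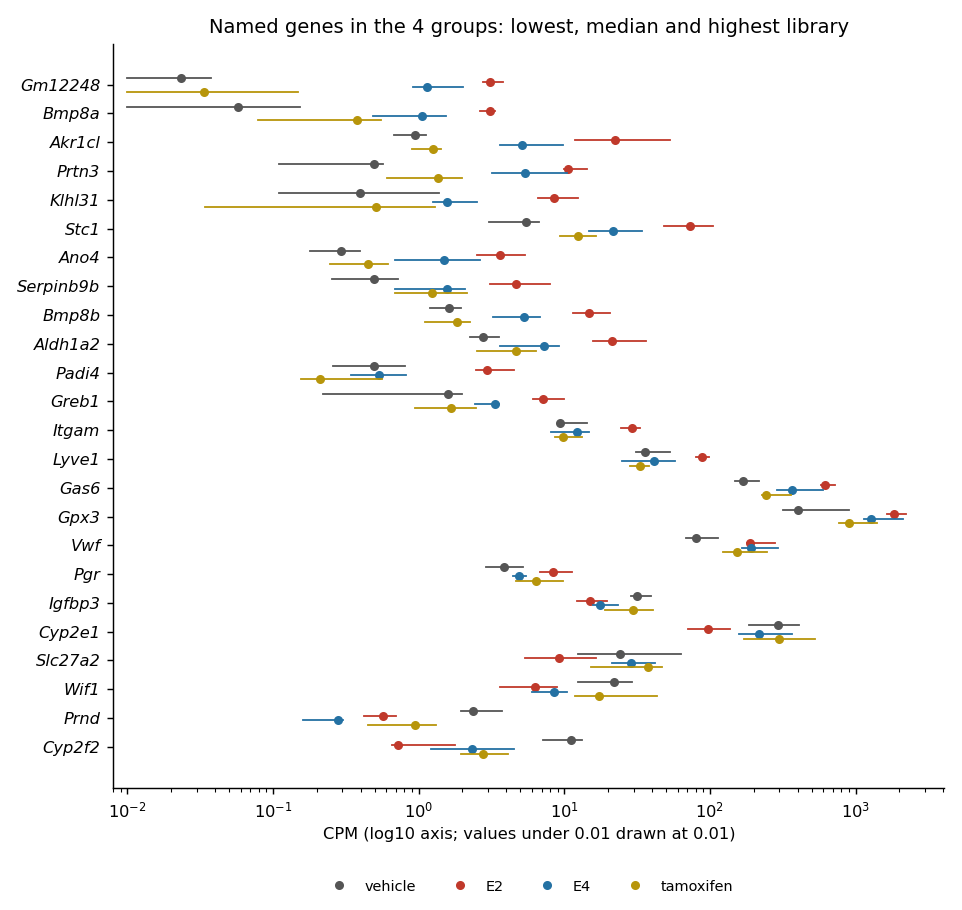
Lowest, median and highest CPM (line ends and point, log axis) of 24 named genes in the vehicle, E2, E4 and tamoxifen groups of 6 libraries each, with values under 0.01 drawn at 0.01. For most genes called higher the E2 point is rightmost, while for Vwf E2 and E4 lie together.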

How the data were processed

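RNA of uninjured carotid arteries was sequenced as stranded poly(A) libraries. Per the labels and the study's methods, the authors demultiplexed with bcl2fastq 2.17, trimmed with Trim Galore, aligned with Bowtie2 to mm10/GRCm38 and deposited estimated counts per Ensembl gene from featureCounts; its options, strand setting and annotation release are not given in the sources used here. Because 8.87% to 9.8% of the values per library carried decimals, the expected counts were rounded to whole numbers. No strand setting being known, reads of overlapping genes cannot be told apart.

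Gene names came from GENCODE M21 (55240 of 55421 identifiers matched) and sequences from RefSeq tables (GRCm38.p6). Libraries were grouped by title. The 18 vehicle, E2 and E4 libraries were fitted together without covariates in edgeR 4.0.16 (TMM scaling, filterByExpr, quasi-likelihood test, Benjamini-Hochberg adjustment over all genes tested); E2 against tamoxifen used all 24. Libraries of 1 group are separate numbered animals, and p-values measure the spread between them. Total counts of 24647246 to 64221401 over the 24 libraries limit precision for genes with a few counts, and counts cover counting error only. On simulated counts (24396 genes), 194 of 200 changed genes were called, with 4 unchanged genes. The changed genes all lay above 1 CPM with folds beyond the calling threshold, and no simulated library stood apart as vehicle C5 did. These counts therefore do not carry over to genes of lower level or smaller change, or to libraries as uneven as these.

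The comparison and gene lists were chosen with earlier results of these data known. Genes were named by rule: the 14 highest and 10 lowest log2 fold changes among called protein-coding genes at a group mean of at least 1 CPM, the 6 most abundant called genes, Esr1, Esr2, Gper1, Pgr and Greb1, and the called members of each list at its extremes. As Mup genes took 12 of the 14 places, the 14 highest outside that family were added after the values were seen. Other genes in the text were likewise picked after their values were seen. Alternatives covered scaling, filters, libraries, covariates, thresholds, DESeq2 1.42.0 and leaving out each library. R 4.3.3, Python 3.11.15 and matplotlib 3.10.9 were used. Results for a few genes are not reported here.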

Additional observations from a re-analysis of the deposited data

Results flagged for a closer look

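Among 138 groups of 6 libraries examined for a single value standing apart (Dixon's criterion), 6 were found, and chance alone gives about 6.9. In 2 of them the library was E2 C9: Grb7 was at 0.826 CPM there against 0.0492 to 0.293 CPM in the other E2 libraries, and Prr32 at 5.26 CPM against 0.586 to 2.02 CPM. Vehicle C5 stood apart in mean log2 CPM of 3 marker lists, with 5.29 for macrophage markers (others 4.61 to 4.82), 1.44 for sympathetic ganglion markers (7.06 to 8.04) and 1.68 for cartilage markers (2.22 to 2.43). Vehicle C2 was at 3.3 for skeletal muscle markers (others -1.15 to 0.01).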

How the results depend on the processing

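Counts of genes called are given as all, higher and lower. Against 302, 222 and 80, the other scalings, filters on low counts, fits of 12 or 24 libraries and DESeq2 gave between 274 and 372 genes, protein-coding genes alone 246 and genes without overlapping exons 240. The series of lower animal numbers alone gave 141, 129 and 12, the upper series 171, 121 and 50. No fold threshold gave 956, 653 and 303, a test against a fold of 2 gave 76, 70 and 6, and an adjusted p below 0.01 gave 226, 173 and 53. With sympathetic ganglion markers as covariate 403, 320 and 83 were called, with B cell markers 318, 254 and 64, and with macrophage markers 378, 164 and 214. Leaving out 1 library gave 268 to 359, 195 to 278 and 66 to 94; the highest total was without vehicle C5. The 50 named genes differing between E2 and E4 became 31 in the lower series, 0 in the upper series, 24 with B cell markers and 0 with macrophage markers as covariate, and 41 to 52 without 1 library; the 59 differing between E2 and tamoxifen became 34 in the upper series, 46 in the lower series, 42 with macrophage markers as covariate and 55 to 62 without 1 library. The cause of these shifts was not tested, apart from fewer libraries in the series fits. The covariate marker levels themselves differ between groups. Of single genes, Gper1, not called, turned from -0.27 to a log2 fold change of 1.04 with the macrophage covariate, while 2065 values kept direction and side of the threshold and 198 kept direction and lost the call. Leaving out 1 library ended the call of Adig, Agt, Col6a5, Comp, Cyp1a1, Grb7, Ihh, Kif11, Oas3, Tbxas1 and Unc13c in at least 1 fit. No paired analysis was possible because the groups share no animal numbers.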

Other observations

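Genes with few counts also separated the groups, and 2 of them, chosen after their values were seen, are given here. Krt83, a hair keratin, had 0 counts in each of the 6 vehicle libraries, which allows up to 3 counts each, and 11 to 32 counts in the E2 libraries (edgeR adjusted p = 0.000141). It was at 0 to 0.202 CPM in E4 and 0 to 0.059 CPM in tamoxifen, below the 0.229 to 0.674 CPM of E2. Oxct2b, a ketone body enzyme, had 0 or 1 count in vehicle and 15 to 52 counts in E2 (edgeR adjusted p = 1.53e-06).

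Dio2, the deiodinase that activates thyroid hormone, was called higher among the brown adipocyte markers, at 59.3 to 114.0 CPM in vehicle and 102.8 to 391.8 CPM in E2 (log2 fold change 1.43, edgeR adjusted p = 0.00901), while the median of the 10 tested markers was -0.36. Scin, the actin-severing scinderin, was at 3.06 to 6.39 CPM and 14.6 to 25.7 CPM (2.43, edgeR adjusted p = 2.12e-07), and Heph, an iron-exporting ferroxidase, at 5.62 to 10.1 CPM and 24.7 to 57.2 CPM (2.16, edgeR adjusted p = 2.87e-07). Cilp, a matrix protein of cartilage and fibroblasts, was at 28.2 to 61.1 CPM and 144.3 to 175.7 CPM (1.87, edgeR adjusted p = 7.84e-06).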
